A study of Homo sapiens with 7 samples.

Results

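The 10 keratin genes described here are KRT8, KRT18, KRT19, KRT20, KRT7, KRT80, KRT23, KRT5, KRT14 and KRT1. They were chosen by name out of 20162 protein-coding genes and 55 keratin genes of the hg19 annotation, and every deposited interval over the gene body or within 10 kb of it was collected. The rule is a list of names without a threshold, and the list was drawn up with earlier results of these data known. The windows held 89 different intervals of 6 marks, and 39 of them passed the limits of the study's methods. Which of these genes carried the chromatin marks of active promoters, which carried other marks and which carried none was the question asked of the lists.

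The chromatin came from HCT116 cells, a human colorectal carcinoma line for which no treatment is given, and was sheared in 96-well plates with the PIXUL sonicator for 6 min a well in 100 μl. Each antibody gave 1 library from 1 well of 200000 cells, so no value has a replicate error and no test between groups was possible. Peak lists of H3K4me3, H3K9Ac, H3K4me1, H3K36me3, H3K27me3 and CTCF were used, and H3K27Ac was not analysed here. The lists hold 16112 to 55270 intervals and no read counts, so the depth of the libraries is unknown, and the absence of an interval means only that none was called at that depth. HCT116 is a single tumour-derived line and does not stand for the colon epithelium.

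Keratins are the intermediate filament proteins of epithelial cells. A filament needs a type I and a type II keratin, and the genes of the types lie in separate clusters, type II on chromosome 12 and type I on chromosome 17, with the exception of KRT18, a type I gene at the end of the type II cluster. KRT8 and KRT18 form the filaments of simple epithelia such as the gut lining. KRT19 is a further type I keratin of simple epithelia, KRT20 is known from the differentiated intestinal epithelium, and KRT7 from ducts and glands. KRT5 and KRT14 pair in the basal layer of stratified epithelia and KRT1 in the layers above it. H3K4me3 and H3K9Ac are found at active promoters, H3K4me1 at enhancers and at the flanks of promoters, H3K36me3 over transcribed gene bodies and H3K27me3 at genes silenced by Polycomb complexes. CTCF, a protein with zinc fingers, binds particular DNA sequences and takes part in chromatin looping.

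A peak counted as past the limits when its fold enrichment exceeded 2 at a q-value under 0.001 (H3K4me1 and H3K27me3), or exceeded 5 at a q-value under 1e-10 (the other marks). The fold enrichment is a linear ratio of the signal over the background for the whole interval. A transcription start site (TSS) was taken as marked when such a peak lay within 1 kb of the start of the canonical transcript. By this measure the 10 genes fell into 3 groups. KRT8, KRT18 and KRT19 carried H3K4me3, H3K9Ac and H3K4me1 at the TSS. KRT7, KRT80, KRT23 and KRT5 carried H3K4me1 without H3K4me3 or H3K9Ac, and KRT20, KRT14 and KRT1 carried none of the 6 marks. The second group rests on looser limits for H3K4me1 than for H3K4me3 and H3K9Ac. Under the H3K4me1 limits, H3K9Ac marked 7 TSSs, this whole group included (12612 of all protein-coding genes). H3K4me3 then marked 5, with KRT7 and KRT80 added (12307 of all). Under the stricter limits, H3K4me1 marked 5, without KRT7 and KRT23 (1412 of all).

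H3K4me3 marked the TSS of 3 of the 10 genes, against 59.1% of all protein-coding genes, and the count was still 3 over the gene bodies and 10 kb around them, against 69.1%. H3K9Ac marked the same 3 TSSs (58.5% of all genes) and 4 of the wider windows, with KRT23 added (68.3%). H3K4me1 marked 7 TSSs (49.1%) and 9 windows, all but that of KRT20 (71.9%). CTCF marked the TSS of KRT8 alone (13.6%) and the windows of KRT8, KRT7, KRT80 and KRT14 (62.4%). Of H3K36me3, 0 genes had a peak past the limits at the TSS (0.298% of all genes) or in the window (0.789%). Of H3K27me3, 0 genes had one at the TSS (1.22%) or in the window (3.94%).

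The combination of H3K4me1 without H3K4me3 was found at 4 of the 10 TSSs, beside 5.03% of all protein-coding genes (95% Wilson interval 4.74 to 5.34%, counting error only). Both the count and the share rest on looser limits for H3K4me1 than for H3K4me3. The absence of all 6 marks was found at 3 of the 10 and at 33.9% of all genes (33.2 to 34.5%). The 3 marks together were found at 3 of the 10 and at 43.1% (42.4 to 43.8%). The genes were chosen by name with known expression in different epithelia, so these shares describe them and no test of the difference was made. Without the limits, any deposited H3K4me3 interval was listed at 5 TSSs (KRT7 and KRT80 added) and any H3K9Ac interval at 7 (KRT7, KRT80, KRT23 and KRT5 added), whereas H3K4me1 stayed at the same 7. Of all protein-coding genes, 61.6, 64.3 and 61.2% had such an interval of H3K4me3, H3K9Ac and H3K4me1, so the 3 counts lay near these shares.

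**Figure D1:**
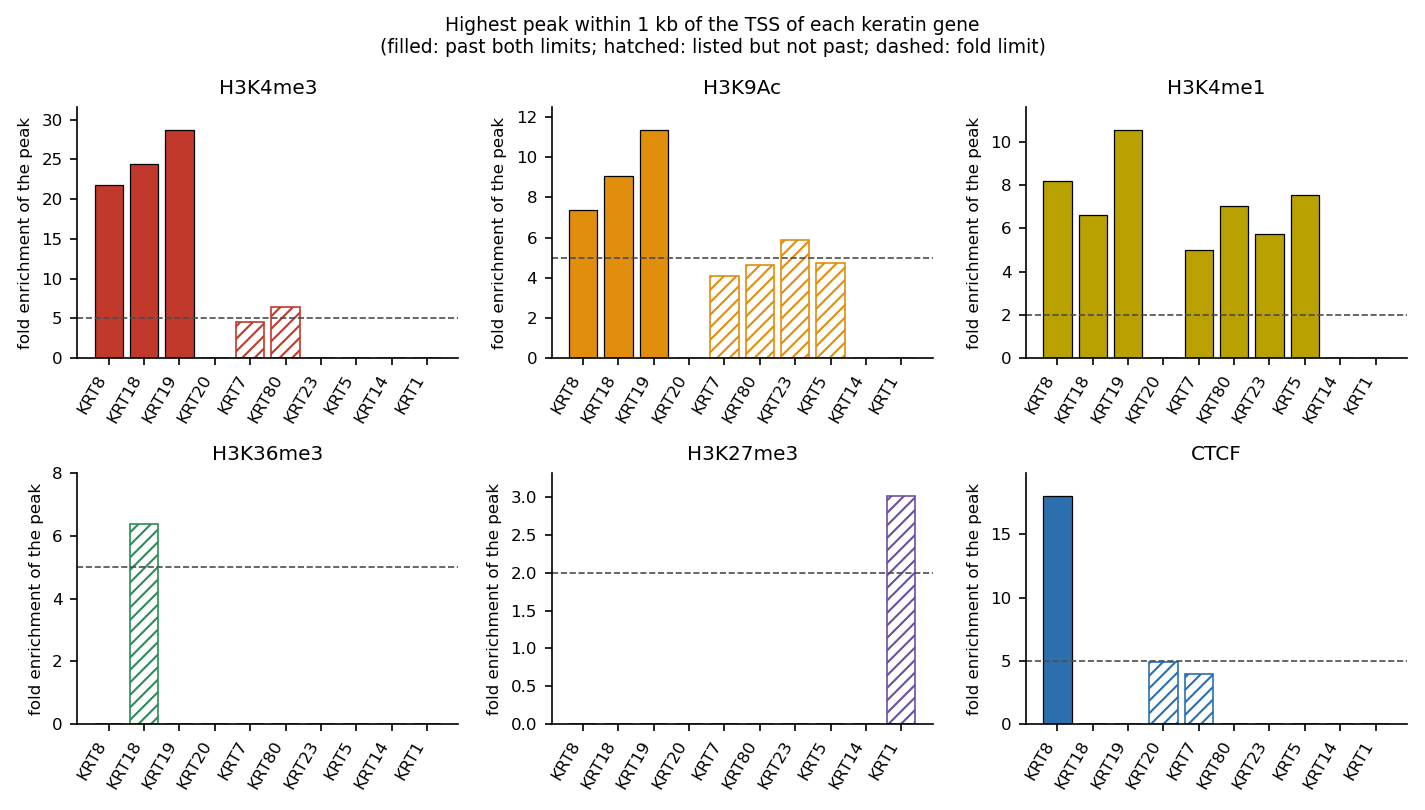
Fold enrichment of the highest peak within 1 kb of the TSS of each of the 10 keratin genes, 1 panel per mark with its own axis; filled bars passed both limits, hatched bars did not, a missing bar means no listed interval, and the dashed line is the fold enrichment limit. H3K4me3 stood at 21.8, 24.4 and 28.7 at KRT8, KRT18 and KRT19 and at 4.60 and 6.47 at KRT7 and KRT80, whereas H3K4me1 was past the limits at 7 genes.

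The fold enrichment of H3K4me3 lay within the middle 50% of marked promoters at KRT8 and KRT18 and a little above it at KRT19. It was 21.8 at KRT8, 24.4 at KRT18 and 28.7 at KRT19, beside a median of 22.5 over the 11924 marked protein-coding TSSs (middle 50% from 17.3 to 27.8). The KRT19 value was higher than that of 78.4% of these TSSs, and the KRT8 value higher than that of 46.1%. KRT8 and KRT18, which encode partner proteins, differed little in this value, but with 1 library the size of the error is unknown.

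H3K9Ac at the same 3 genes combined a wide interval with a low fold enrichment. The fold enrichment was 7.37 at KRT8, 9.09 at KRT18 and 11.4 at KRT19, all under the median of 13.1 for marked TSSs (middle 50% from 10.5 to 15.9). The KRT8 value exceeded only 4.35% of the marked TSSs. The intervals measured 15179, 13659 and 12937 bp in the same order, wider than 98.6, 98.2 and 97.9% of the H3K9Ac peaks past the limits, whose median was 2944 bp. The value describes a whole interval, and the height at its summit was not measured. Each of the 3 intervals covered the whole canonical transcript, with 8 exons of KRT8, 7 of KRT18 and 6 of KRT19.

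H3K4me1 went the other way. Of the 7 marked genes, 6 had a fold enrichment above the upper quartile of 5.57 for marked TSSs, and KRT7, with 5.01, lay between the median of 4.69 and that quartile. The values were 10.6 at KRT19, 8.17 at KRT8, 7.54 at KRT5, 7.05 at KRT80, 6.64 at KRT18 and 5.76 at KRT23. KRT19 exceeded 99.5% of the marked TSSs and KRT8 97.0%. Neighbouring values in this order cannot be separated without replicates.

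KRT8 (ENSG00000170421) lies on the minus strand of chromosome 12, and its canonical transcript of 8 exons runs from 53298860 down to 53290975. The H3K4me3 peak extended from 53296588 to 53298996 and overlapped exon 1 of the 8 exons and reached 136 bp upstream of the TSS (−log10 q-value 70.6). H3K4me1 left the first part of the gene free. One peak ended at 53297327 and the next began at 53298904, 44 bp upstream of the TSS, so that a gap of 1576 bp lay within the H3K4me3 peak. A CTCF peak of fold enrichment 18.04 lay over the TSS itself, from 53298611 to 53299434, and was higher than 77.0% of the CTCF peaks at protein-coding TSSs.

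A similar gap was found at KRT19 and none at KRT18. KRT19 (ENSG00000171345), on the minus strand of chromosome 17, has a canonical transcript of 6 exons from 39684560 down to 39679869. Its H3K4me1 peaks, of 10.6 upstream and 8.40 over the gene body, flanked a gap of 1341 bp from 39683409 to 39684749, and the H3K4me3 peak from 39682370 to 39685157 lay across this gap. At KRT18 a single H3K4me1 interval of 16577 bp ran over the TSS. Of 8721 protein-coding genes with H3K4me3 over the TSS base and H3K4me1 within 1 kb, H3K4me1 covered the TSS base at 67.5% (66.5 to 68.4%), so that both arrangements were common.

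KRT18 (ENSG00000111057) lies upstream of KRT8 on the plus strand, and its canonical transcript of 7 exons runs from 53342902 to 53346690. The 2 genes point away from each other, with their promoter peaks at either end of a stretch that held a further marked site. There, H3K9Ac covered 53314823 to 53324650 (fold enrichment 7.45) and H3K4me1 covered 53314806 to 53326248 (7.47). Both values were close to those at the KRT8 promoter, 7.37 for H3K9Ac and 8.17 for H3K4me1. A CTCF peak (13.2) lay inside the site from 53321134 to 53321719, and H3K4me3 was listed at 4.65 with a −log10 q-value of 4.76, under both limits. The site contained no canonical TSS of a protein-coding gene.

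The annotation links the 2 promoters. Of 18 annotated KRT8 transcripts, 8 start within the H3K4me3 peak at the KRT18 promoter and 4 within the peak at the canonical KRT8 TSS. Among the 10 protein-coding KRT8 transcripts these numbers were 5 and 2. The inner site held the start of 1. The window of KRT8 therefore contains all of KRT18, and their shared intervals were counted once. Which of these starts the cells used was not measured.

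**Figure D2:**
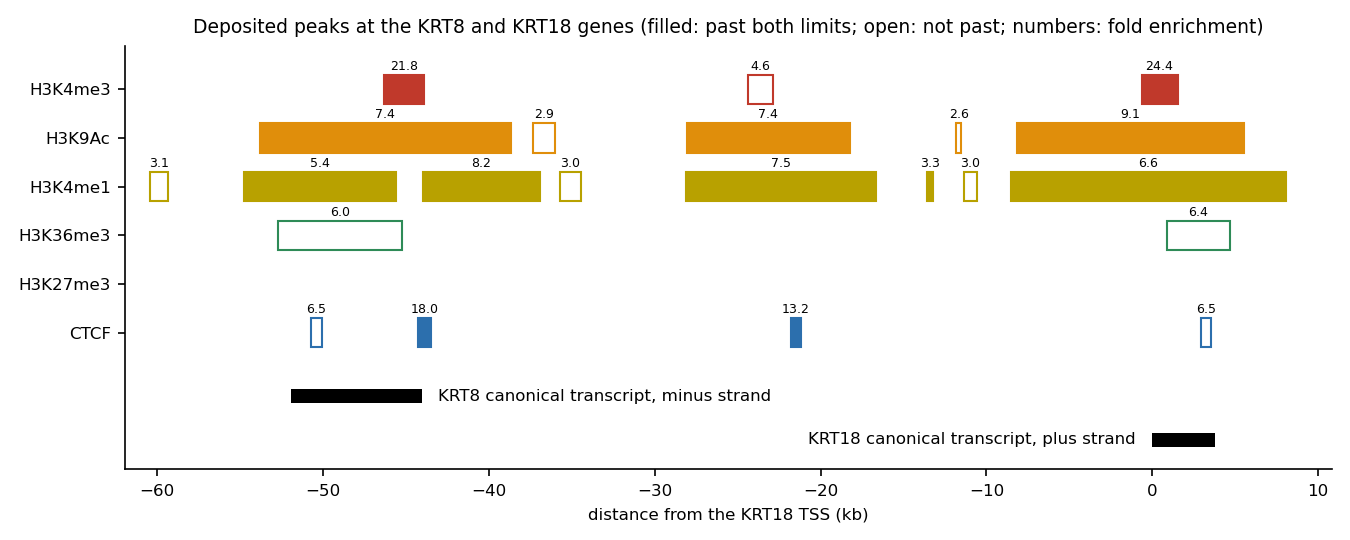
Deposited intervals over the KRT8 window, drawn to scale by distance from the KRT18 TSS in kb, 1 row per mark; filled boxes passed both limits, open boxes did not, and the number above a box is its fold enrichment. The promoter peaks of KRT8 and KRT18 carry H3K4me3 at 21.8 and 24.4, and the site between them carries H3K9Ac, H3K4me1 and CTCF past the limits and H3K4me3 only at 4.65.

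The bodies of these 3 genes held the H3K36me3 intervals with the highest values in the 10 windows, none of them past the limits. The fold enrichment was 6.37 at KRT18 (−log10 q-value 9.28), 5.99 at KRT8 (8.23) and 3.99 at KRT19 (3.53). The KRT18 and KRT8 intervals passed the fold enrichment limit and missed the q-value limit of 10 on this scale. In the deposited list of 40010 intervals, they stood at ranks 88 and 134 by fold enrichment. The limits leave 90 H3K36me3 peaks in the genome, so that a count of 0 says little about this mark. Elsewhere, KRT23 had H3K36me3 intervals of 3.02 and 3.07 in its body and KRT80 one of 3.01, and KRT20, KRT7, KRT5, KRT14 and KRT1 had none listed in their windows.

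The H3K9Ac peak of KRT19 also covered the TSS of KRT15, a neighbouring type I keratin of basal cells. KRT15 itself had no H3K4me3 interval within 1 kb of its TSS. The KRT19 window held no CTCF interval, and the nearest past the limits lay 20.2 kb from the TSS, with a fold enrichment of 27.3.

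KRT7, KRT80, KRT23 and KRT5 were alike in H3K4me1 at the TSS and differed in how near the other promoter marks came to the limits. KRT80 (ENSG00000167767, chromosome 12, minus strand, TSS 52585798) encodes a type II keratin. Its H3K4me3 interval, from 52584428 to 52586086, had a fold enrichment of 6.47, above the limit of 5, at a −log10 q-value of 9.56, below the limit of 10. This was the member nearest to the limit from below. H3K9Ac at the same TSS reached 4.64, and the H3K4me1 interval of 14062 bp ran over the TSS with 7.05. Of the H3K4me1 peaks past the limits, 98.7% were narrower.

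KRT7 (ENSG00000135480, chromosome 12, plus strand, canonical TSS 52627027) had H3K4me3 of 4.60 over 684 bp and H3K9Ac of 4.10 at the TSS, both under the limits. Its highest H3K4me1 peak, 7.78, did not lie at the TSS but in the gene body, from 52636220 to 52643620, past the end of the canonical transcript. There H3K9Ac reached 5.19 with a −log10 q-value of 6.75, under the q-value limit. The TSS peak of H3K4me1 had 5.01.

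At KRT23 (ENSG00000108244, chromosome 17, minus strand, TSS 39093898), a type I keratin, H3K4me3 was not listed anywhere in the window, and the nearest H3K4me3 peak lay 117 kb away. H3K9Ac at the TSS had a fold enrichment of 5.90 at a −log10 q-value of 8.88, under the q-value limit alone. The window nevertheless held 6 H3K9Ac and 5 H3K4me1 intervals. On either side of the gene, H3K9Ac peaks past the limits overlapped H3K4me1 peaks past the limits. The upstream H3K9Ac peak measured 14626 bp (fold enrichment 7.34) and the downstream one 5694 bp (6.49).

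KRT5 (ENSG00000186081, chromosome 12, minus strand, canonical TSS 52914178), the type II keratin of basal cells, had H3K4me1 on the upstream side only. The peak began 127 bp upstream of the TSS, extended over 5021 bp and had a fold enrichment of 7.54, and H3K9Ac of 4.73 lay within it. No H3K4me3 was listed in its window, nor an H3K4me1 interval over its canonical transcript, although the peak reached the first bases of the longer annotated gene. Its partner KRT14 (ENSG00000186847, chromosome 17, minus strand, TSS 39743147) had no interval of any mark at the TSS. Its nearest intervals lay downstream of the gene, where H3K4me1 of 4.73 and CTCF of 11.6 overlapped. The 2 partner genes of the basal layer thus differed in H3K4me1 at the TSS, as KRT8 and KRT18 did not.

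Of the 10 genes, KRT20 had the fewest intervals in its window. KRT20 (ENSG00000171431, chromosome 17, minus strand, TSS 39041494), the intestinal keratin, had 2. H3K4me1 of 2.91 (−log10 q-value 1.44) lay in the body and CTCF of 4.91 (5.73) began 21 bp upstream of the TSS, and neither passed the limits. The nearest H3K4me3 peak past the limits was 65.0 kb away and the nearest H3K4me1 peak 15.7 kb. KRT1 (ENSG00000167768, chromosome 12, minus strand, TSS 53074191), a keratin of the epidermis, was the only one of the 10 with H3K27me3 over the TSS. That interval, of 3117 bp, had a fold enrichment of 3.01 at a −log10 q-value of 1.67, under the limit of 3. The nearest H3K4me3 peak lay 193 kb away. The only other H3K27me3 intervals of the 10 windows were one of 2.89 upstream of KRT1 and one of 3.17 downstream of KRT80, neither past the limits. Unlike those of the other 5 lists, the peak names inside the H3K27me3 list do not carry the name of the cell line, so this list rests on its label.

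**Figure D3:**
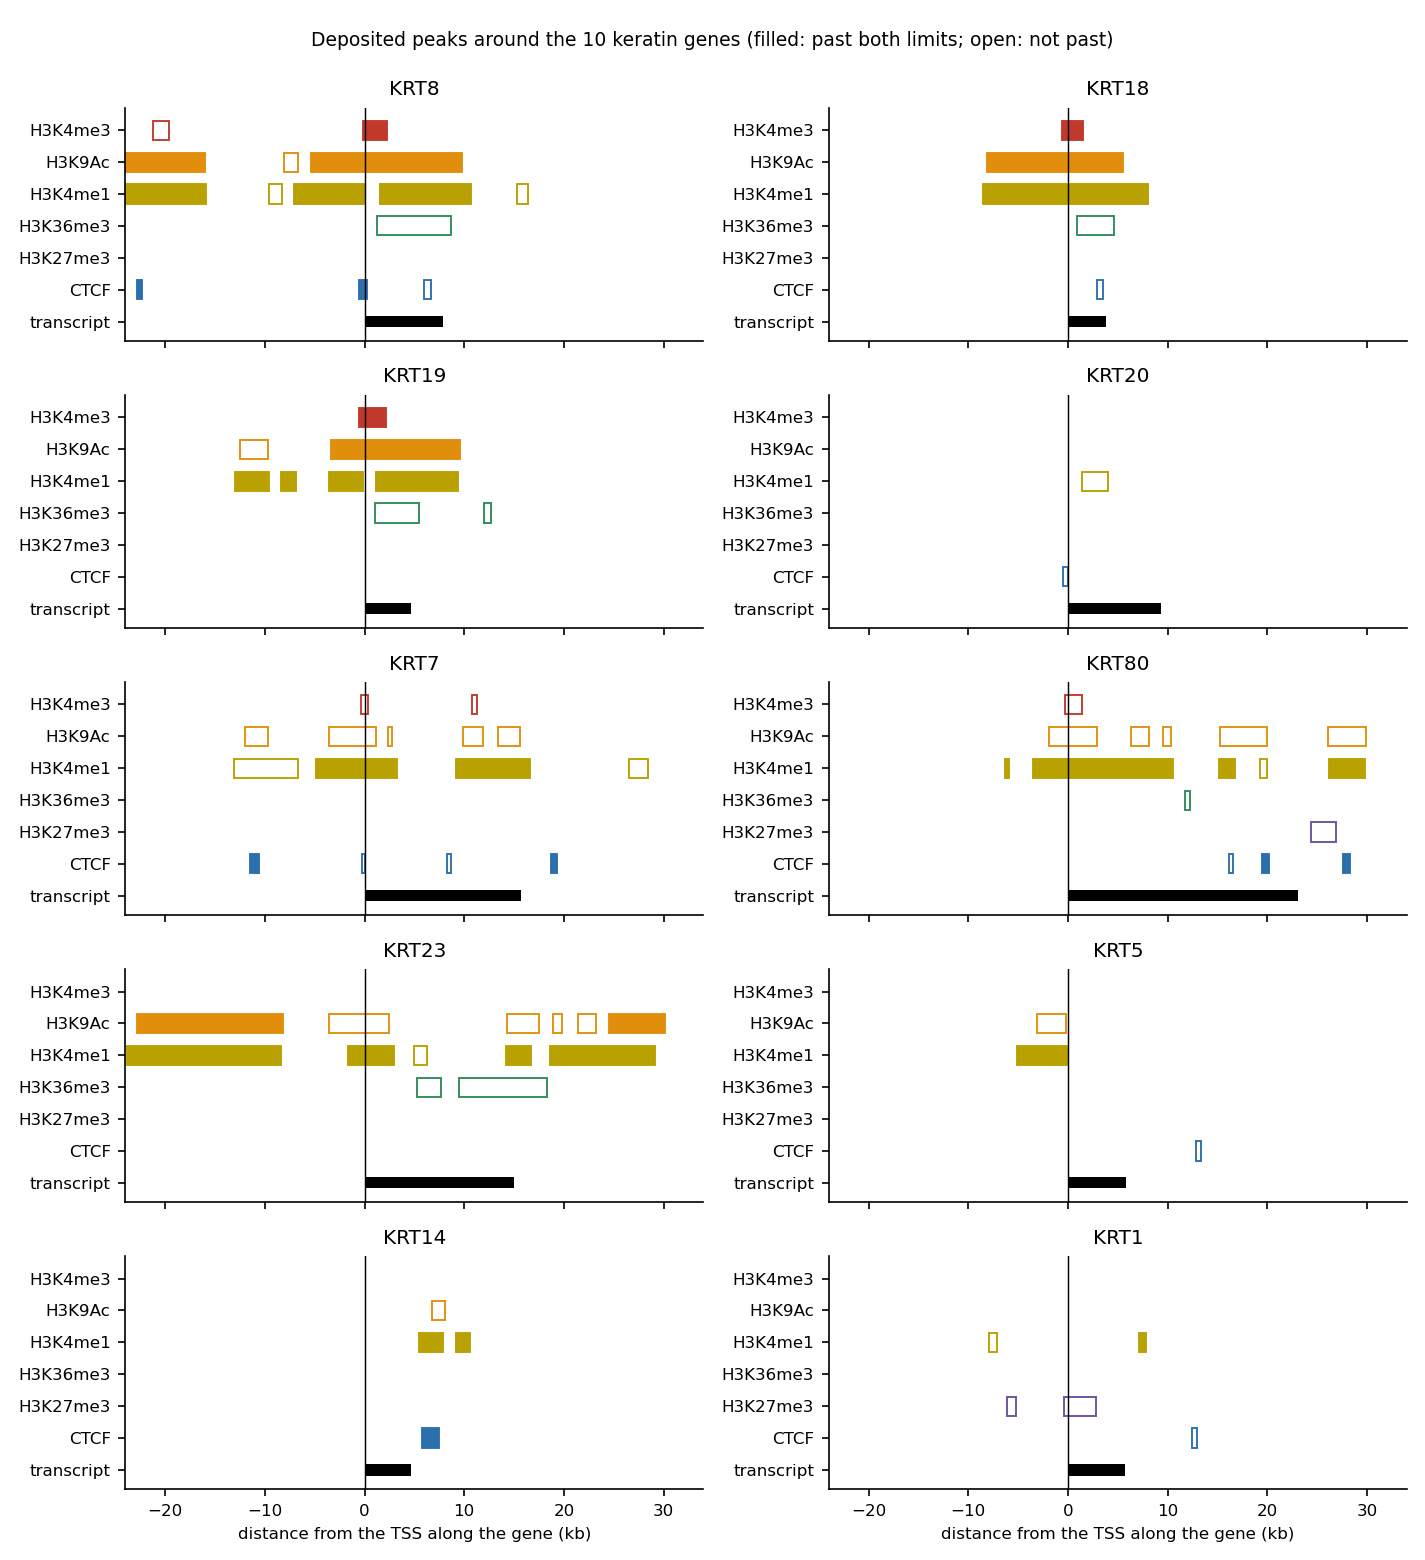
Deposited intervals around each of the 10 genes by distance from the TSS along the gene in kb, 1 row per mark; filled boxes passed both limits, open boxes did not, and black bars are the canonical transcripts. Intervals further than 24 kb upstream of KRT8 are cut off; KRT8, KRT18 and KRT19 hold filled boxes of H3K4me3, H3K9Ac and H3K4me1 at 0 kb, and KRT20, KRT14 and KRT1 hold no filled box there.

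The promoters of the marked genes did not share a base composition. CpG dinucleotides are frequent at most active promoters, and the ratio of observed to expected CpG in the 300 bases from 250 before to 50 after the TSS was above 0.6 at 92.8% of the protein-coding genes with H3K4me3 and at 29.3% of those without. KRT18 was at 0.88, KRT19 at 0.56 and KRT8 at 0.25. Thus 1 of the 3 marked keratin promoters lay above 0.6, and KRT8 was below the median of 0.34 of the unmarked genes. Conversely KRT7, without H3K4me3 past the limits, was at 0.73. The other 6 lay between 0.14 and 0.48. Over 1000 bases on each side of the TSS, KRT19 rose to 0.64 and KRT18 fell to 0.50, so the result for single genes depends on the window.

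**Figure D4:**
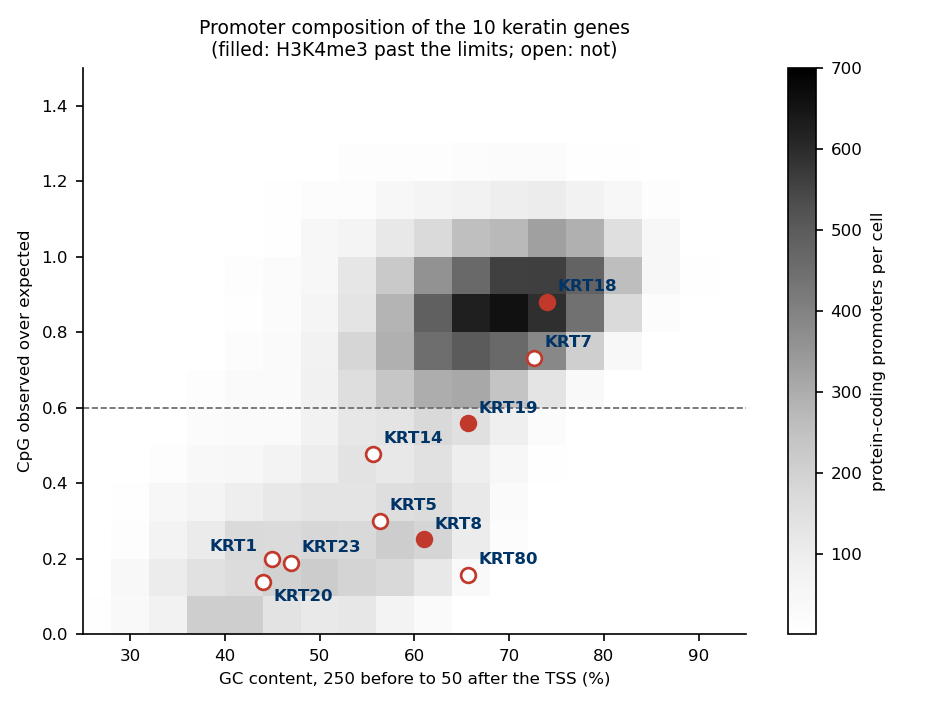
GC content in percent and observed over expected CpG of the 10 promoters (points, filled where H3K4me3 was past the limits) over the number of protein-coding promoters in each cell (grey), with a dashed line at 0.6. KRT18 at 0.88 lies in the dense part of the cloud, whereas KRT8 at 0.25 lies among the promoters poor in CpG.

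The motifs searched on both strands of these 300 bases were spread over the groups. TATAAA, the letters of the TATA box, was found at 2 of the 10 promoters, KRT8 and KRT14, against 9.80% of all protein-coding promoters. On the strand of the gene, the match lay at positions −29 to −24 from the TSS at KRT14 and at −11 to −6 at KRT8. GGGCGG, those of the GC box, was found at 6 promoters (60.9% of all) and CCAAT, those of the CCAAT box, at 6 (35.9%). TGANTCA, those of the AP-1 site, was found at KRT14 alone (5.42%), and CCGGAAG, the letters of an ETS site, at 0 of the 10 (14.0%). A match is a description of the letters and not evidence of a bound factor.

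Some of the CTCF in and next to the keratin genes lay over coding exons. The KRT80 window held CTCF peaks of 15.5 downstream of the gene and 10.2 in exon 7 of 9, and KRT8 and KRT18 held CTCF intervals in exon 6 of 8 and exon 6 of 7. These had fold enrichments of 6.54 and 6.50 at −log10 q-values of 9.24 and 9.28, just under the limit of 10. The KRT18 exon holds the letters of the CTCF core motif, of 12 bases, with 1 mismatch, on the strand opposite to the gene. It is shown with 8 bases on each side, the motif in capitals, beside that of KRT14, which carries the same letters in the later part of the coding sequence without a CTCF interval, and that of the CTCF peak downstream of KRT80, an exact match.
KRT18 exon 6 (chr12:53346096-53346107, minus strand): gccatcttCCAGCAGGCGGCggtaggtg
KRT14 exon 6 (chr17:39739503-39739514, plus strand): ctcgccctCCAGCAGGCGGCggtaggtg
KRT80 downstream (chr12:52557880-52557891, plus strand): tgtcacggCCAGCAGAGGGCagaggttg

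Over the coding exons of all 55 keratin genes, 29 words with at most 1 mismatch to the core motif were found. Of these, 12 (41.4%) were under a deposited CTCF interval and 8 (27.6%) under one past the limits, beside 15.4 and 9.61% of the 4839 such words in the coding exons of all protein-coding genes. Any CTCF interval over coding exons was found at 14 of the 55 keratin genes (25.5%), beside 27.4% of all 19881 genes with coding exons in the annotation. The 12 words under an interval were among 16 antisense words between 74.4 and 89.0% of the coding length, a stretch picked after the values were seen. These 16 words had only 4 different sequences. At 9 genes the word was the same, with 8 under an interval and 7 under one past the limits. The word shown above for KRT18 and KRT14 was found at 5 genes, with 2 under an interval and 0 under one past the limits. The words are therefore not independent of each other. Keratin genes of 1 type are similar in sequence, and the part of reads placed between such copies was not tested.

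A CTCF peak at the end of KRT7, from 52645718 to 52646350 with a fold enrichment of 9.51, also overlapped the annotated genes KRT86 and KRT87P. Counting the windows of the 10 genes, 1 of 7 CTCF peaks past the limits held the core motif without a mismatch and 3 of 7 with up to 1 mismatch. Over all 24536 CTCF peaks past the limits these shares were 22.4 and 65.9%. The CTCF peaks at the KRT8 TSS and at the site between KRT8 and KRT18 held neither.

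The other 45 keratin genes were nearly free of the marks of active promoters. H3K4me3 was past the limits at the TSS of 1, KRT222, with a fold enrichment of 7.38, against 59.1% of all protein-coding genes. That peak also covered the TSS of another annotated gene, as did the H3K9Ac peak there. More than 1 kb from the keratin TSS, H3K4me3 peaks overlapped KRT10 (25.7, at the TSS of KRT10-AS1) and KRT86 (7.03). These were named after their values were seen. H3K9Ac marked 2, KRT222 and KRT15 (58.5% of all genes), and H3K4me1 marked 2, KRT15 and KRT16 (49.1%). The genes of these 2 counts were also named after their values were seen. At 42 of the 45 TSSs none of the 6 marks passed the limits, against 33.9% of all protein-coding genes. No interval at all was listed at 38 of the 45 TSSs, among them those of all 26 genes of hair and hair follicle. The share of all protein-coding genes without any interval was not computed, but 64.3% had at least an H3K9Ac interval at the TSS.

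**Figure D5:**
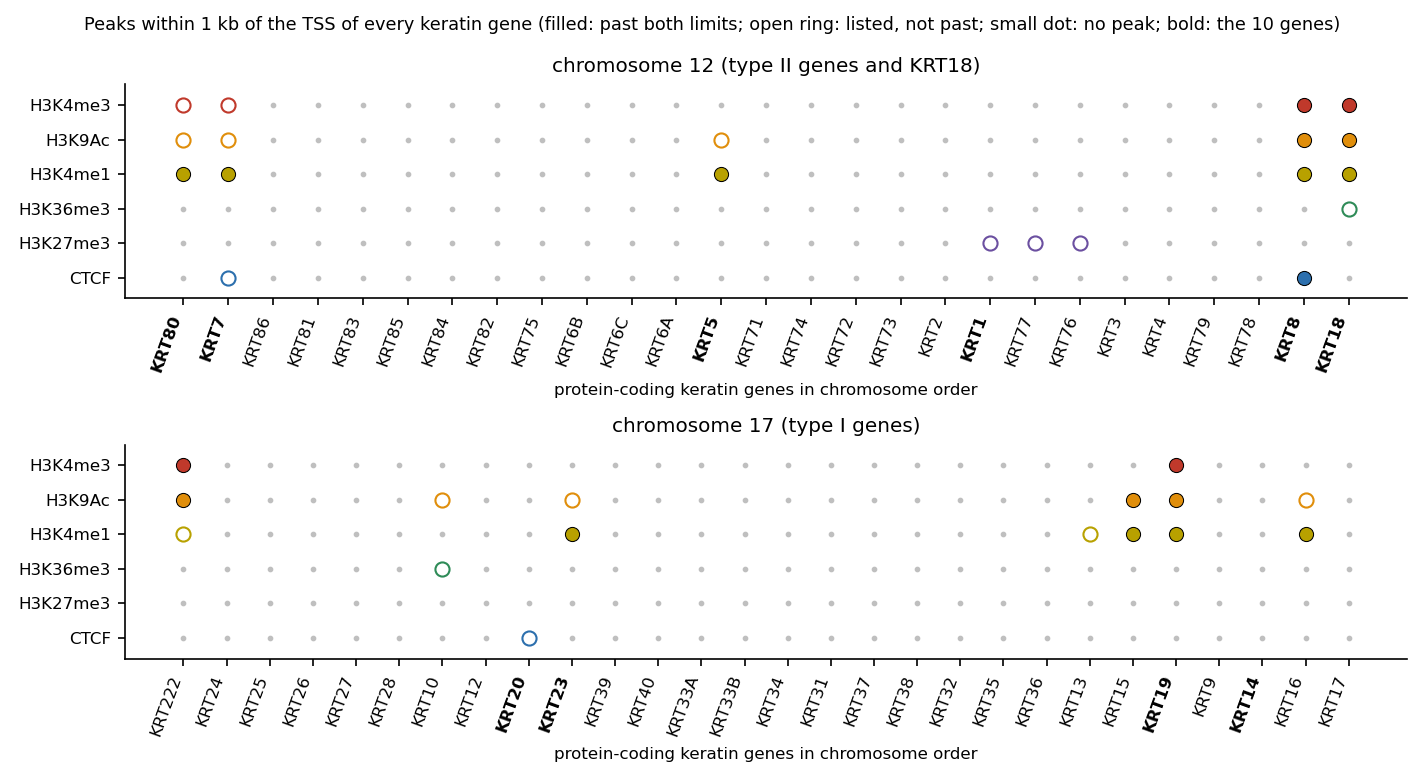
Intervals within 1 kb of the TSS of all 55 keratin genes in chromosome order, 1 row per mark; large filled circles passed both limits, open rings did not, small dots are TSSs without an interval, and bold names are the 10 genes. Filled circles of H3K4me3 stand at KRT8, KRT18, KRT19 and KRT222, and the 26 hair keratin genes show small dots only.

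All of the H3K27me3 listed in the keratin clusters was under the limits and lay on chromosome 12. In the stretch of 783.911 kb from KRT80 to KRT18, with 27 keratin genes, 23 H3K27me3 intervals were listed, which covered 8.39% of it, against 7.16% of hg19. Their −log10 q-values lay between 1.03 and 2.70, and 0 passed the limits. In the stretch of 970.178 kb of type I genes on chromosome 17, with 28 keratin genes, 0 were listed. H3K4me1 past the limits covered 16.99% of the chromosome 12 stretch and 13.7% of the chromosome 17 stretch, against 2.89% of hg19. H3K9Ac covered 5.60 and 5.36%, against 1.55%, whereas H3K4me3 covered 0.761 and 0.795%, against 0.838%. No other regions were matched to these stretches.

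Genes that work with keratins were looked up from fixed lists. Of 16 genes of desmosomes and keratin linkers, 12 had H3K4me3 past the limits at the TSS, against 59.1% of all protein-coding genes, among them DSP, which anchors keratin filaments at desmosomes (28.0), PLEC, a linker protein (14.9), and JUP, the plakoglobin of the desmosomal plaque (24.3). DSC3, EVPL and PPL, known from stratified epithelia, were also marked (11.4, 24.1 and 26.7), whereas PKP1, DSG1, DSG3 and DSC1, known from the same tissues, had none. Of 13 genes of other intermediate filaments, 4 were marked, the nuclear lamins LMNA, LMNB1 and LMNB2 and SYNM. VIM, the filament gene of mesenchymal cells, had H3K4me3 of 5.41 and H3K9Ac of 5.18, both under the q-value limit. Its H3K4me1 of 7.75 and H3K27me3 of 4.20 were past the limits. Of 11 epithelial transcription factor genes, 8 were marked (KLF4, KLF5, GRHL1, GRHL2, ELF3, OVOL1, OVOL2 and CDX2), and TP63, GRHL3 and EHF were not. TP63, the factor of basal cells that also express KRT5 and KRT14, had no interval of any mark at its canonical TSS. Other starts of this gene were not looked up, so nothing is said of them here.

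The label of an epithelial colon line was set against markers. H3K4me3 was past the limits at EPCAM (30.4), CDH1 (25.1) and CDX2 (31.6), and not at CDH17, VIL1 and LGALS4, markers of differentiated intestinal cells. Of 8 markers of other cell types, 1 was marked, COL1A1 (9.21), and PTPRC, CD3E, CDH5, DES, ACTA2, COL1A2 and GFAP were not. Over all protein-coding genes the share was 59.1%, beside 3 of 6 epithelial and colonic markers and 1 of 8 others. RNA was not measured in these lists, so active and silent are said here of chromatin marks and not of expression.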

How the data were processed

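Reads were placed on hg19 by the authors using BWA 0.7.12, and broad peaks of each library came from their MACS2 run (cutoff 0.1); the submitters' processing notes name MACS 1.4.2. For each peak the authors deposited a fold enrichment, which is a linear ratio over background, together with p-value and q-value as −log10. A deposited score was not used. Handling of reads that align to several keratin copies is not given in the sources used here. The limits of the study's methods were then applied; CTCF, without limits of its own there, received those of the other group. Genes came from GENCODE 44 on GRCh37, and overlap required 1 bp. The word search covered single coding exons of canonical transcripts. Overlap counting was tested on simulated windows (600 of 600 planted overlaps recovered, 0 false) and checked against bedtools 2.31.1 (0 of 6 lists differed). Python 3.11.15, pandas 2.3.3 and pyfaidx 0.9.0.4 were used. Members and lists were chosen with earlier results of these data known. Text names all members, other keratins with H3K4me3 at the TSS, and genes of the lists by whether H3K4me3 passed the limits. PECAM1, on a list, was not used here. Intervals printed beside shares are Wilson intervals. Alternatives changed limits, windows, overlap, TSS choice and mismatches. Promoter sequences and some exon sequences are not reported here.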

Additional observations from a re-analysis of the deposited data

How the results depend on the processing

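No paired analysis was possible because there was 1 library per mark. Of 186 recomputed counts, 130 stayed within 1.5 times the reported one and 56 moved, as more or fewer peaks or bases entered by construction. Members marked at the TSS numbered 5 for H3K4me3, 7 for H3K9Ac, 1 for H3K36me3 and 3 for CTCF both with all deposited peaks and with the limits of the other marks, and 1 for H3K27me3 with all deposited peaks. The fold enrichment limit alone gave 1 for H3K36me3 and 1 for H3K27me3. Some counts within 1.5 times also changed. H3K9Ac members fell from 3 to 2, without KRT8, with a fold enrichment limit 1.5 times higher. H3K4me1 members fell from 7 to 5 with the limits of the other marks. The fold enrichment limit alone gave 4 members for H3K4me3 and 4 for H3K9Ac. When at least 50% of the TSS window had to be covered, 4 members kept H3K4me1 and 0 CTCF. The CTCF peak at the KRT8 TSS measured 824 bp, and the median CTCF peak past the limits 739 bp. A single peak of either width is too narrow to cover 50% of the window, so this 0 follows from peak width. Other keratin genes with H3K4me3 at the TSS numbered 0 with a fold enrichment limit 1.5 times higher or 50% coverage, and 2 within 5000 bp. Protein-coding genes marked numbered, with all deposited peaks, 1309 for H3K36me3, 1936 for H3K27me3 and 5940 for CTCF. With the limits of the other marks they were 1412 for H3K4me1, 783 for H3K36me3, 1 for H3K27me3 and 4570 for CTCF. With the fold enrichment limit alone they were 234 for H3K36me3 and 1936 for H3K27me3, and with that limit 1.5 times higher, 21 for H3K36me3. H3K36me3 genes were 13 within 500 bp and 94 within 5000 bp, and CTCF genes 4858 within 5000 bp. With 50% coverage, 6526 genes had H3K4me1, 1 H3K36me3 and 1083 CTCF.

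Intervals over the windows numbered, with all deposited peaks, 7 for H3K4me3, 25 for H3K9Ac, 7 for H3K36me3, 3 for H3K27me3 and 15 for CTCF. With the limits of the other marks they were 6, 16, 3 and 15 for H3K4me3, H3K9Ac, H3K36me3 and CTCF, and 10 for H3K4me1. With the fold enrichment limit alone there were 2 of H3K36me3, 3 of H3K27me3 and 11 of CTCF, and with that limit 1.5 times higher, 2 of H3K9Ac. The gene body alone held 13 H3K4me1 and 4 CTCF peaks, 20 kb around it 36 and 14, and 50 kb around it 45 and 27, with 6 H3K4me3 and 10 H3K9Ac peaks. With 1 mismatch allowed, 3 CTCF peaks held the core motif. Over 1000 bases on each side of the TSS, 1 promoter had a CpG ratio above 0.6. The depth of the libraries is unknown, so its effect on what was listed was not tested.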
